A study of Mus musculus with 27 samples.

Results

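Mnx1, Lhx3, Lhx4, Isl2 and Chat form the motor neuron differentiation genes of the developing spinal cord, and the account below follows these 5 genes through the RNA-sequencing libraries of a mouse study of the transcription factor Nkx2.2. They were chosen by name from the known motor neuron programme, with earlier results of these data known. All 5 are rows of each of the 3 count tables, which hold 39017, 26487 and 55536 gene rows for the progenitors, the adult islets and the embryonic pancreas. The study comprised 27 samples, of which 24 were RNA libraries. It compared wild-type Nkx2.2 with a form mutated in its SD domain, a conserved stretch of NK2-family homeodomain proteins.

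The progenitor libraries came from mouse embryonic stem cells differentiated towards spinal motor neurons and collected on day 4. The iNkx2.2 group (n = 3) carried a FLAG-tagged wild-type Nkx2.2 transgene and received 1 µg/ml doxycycline for about 16 hours. The iSDmut group (n = 2) carried the tagged SD-domain mutant and received the same treatment. The pMN group (n = 3) was the iNkx2.2 line without doxycycline, so iSDmut had no untreated control from its own line and none of the controls received doxycycline. Whole pancreas at E15.5, an embryonic day, was taken from controls (n = 3) and from Nkx2.2SDmut embryos (SDmut, n = 4). Islets were taken at 8 weeks from controls (n = 2) and from mice with a beta-cell-specific SD mutation (betaSDmut, n = 3), and at 4 weeks from controls (n = 2) and from mice labelled betaKO (n = 2). The labels used here name neither the Cre driver of the islet alleles nor the number of clones behind each stem cell line, and they do not say whether replicates were separate cultures or animals, so p-values measure the spread between these samples only. The labels call the 4-week material genomic DNA, yet the deposited columns for it are RNA counts.

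Spinal motor neurons arise from progenitors that express Olig2, and dorsal and ventral neighbours restrict each other's fate through pairs of repressive transcription factors. Nkx2.2 marks the ventral neighbour, the p3 domain that forms V3 interneurons, and is known as a repressor of the motor neuron fate. As cells leave the cycle, Mnx1 (also called Hb9) and the LIM-homeodomain factors Lhx3, Lhx4, Isl1 and Isl2 fix motor neuron identity, and Chat then makes the transmitter acetylcholine. Mnx1 and Isl1 also act in the pancreas, where Mnx1 is needed for beta cell identity.

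Library depth ran from 17757991 to 46840701 counts in the progenitors, from 12398041 to 32385406 in the islets and from 38447596 to 41840638 in the embryonic pancreas. The labels held in the progenitors: Nkx2-2 stood at 5.40 to 11.6 CPM, read counts scaled for library size and composition, in pMN, at 343 to 378 CPM in iNkx2.2 and at 245 to 248 CPM in iSDmut. Nkx2-2, whose count does not tell endogenous from transgene transcript, was thus lower in both iSDmut libraries than in the 3 iNkx2.2 libraries, and that difference did not pass the test (log2 fold change -0.53 ± 0.22 SE, edgeR adjusted p = 0.370). The part of Nkx2-2 level in the differences between the induced lines was not tested. Olig2, which defines the motor neuron progenitor, was high in pMN at 200.2 to 284 CPM. In the 4-week libraries labelled betaKO, Nkx2-2 stood at 92.9 and 64.6 CPM, overlapping with the controls at 102.6 and 76.2 CPM (adjusted p = 0.779, edgeR), and how much of the transcript the deletion removes is not given in the sources used here. Each RNA library is a bulk sample, in which fewer cells of a type and less RNA per cell cannot be told apart.

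The sequences just before the starts of Mnx1 and Lhx3 are shown because each holds both motifs discussed with the Nkx2.2 binding data. Mnx1 lies on the minus strand of chromosome 5 (29473034 to 29478470, GRCm38), and no annotated exon overlaps its promoter at chr5:29478471-29478720. Lhx3 lies on the minus strand of chromosome 2 (26200212 to 26208289), and the promoter of its inner start at chr2:26206576-26206825 overlaps an exon of the antisense gene Gm27196. Both are RefSeq promoters (GRCm38.p6) of 250 bases, written 5′ to 3′ on the gene's strand. Capitals mark AAGTG, the core of the known Nkx2.2 site, and TGAGTG.
Mnx1 promoter: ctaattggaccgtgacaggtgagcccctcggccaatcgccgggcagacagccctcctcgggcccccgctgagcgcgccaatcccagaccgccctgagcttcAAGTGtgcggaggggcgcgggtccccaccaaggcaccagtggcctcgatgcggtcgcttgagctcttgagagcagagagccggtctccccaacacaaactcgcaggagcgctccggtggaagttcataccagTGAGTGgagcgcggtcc
Lhx3 promoter, inner start: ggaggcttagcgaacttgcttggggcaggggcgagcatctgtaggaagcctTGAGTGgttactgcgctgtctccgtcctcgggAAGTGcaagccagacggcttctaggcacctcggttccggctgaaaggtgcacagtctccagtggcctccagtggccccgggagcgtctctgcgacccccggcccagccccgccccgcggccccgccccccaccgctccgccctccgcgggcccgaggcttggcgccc
In Mnx1, AAGTG begins 149 bases and TGAGTG 17 bases before the start. In Lhx3, the same motifs begin 167 and 199 bases before it. Of 32851 mouse promoters of this length, 40.7% held AAGTG on either strand and 13.3% held TGAGTG, so a match in a single promoter is a description of its letters. The search for TGAGTG was added after the binding sites described further on had been seen. Lhx4 (chromosome 1, 155698031 to 155751684, minus strand) and Chat (chromosome 14, 32408203 to 32465989, minus strand) held neither motif in their promoters, and Isl2 (chromosome 9, 55538672 to 55546180, plus strand) held 1 AAGTG and no TGAGTG. The homeodomain motif TAATTA, present in 4.84% of promoters, was found in none of the 5 genes' promoters, and the E-box CATCTG, present in 14.4%, was found only in the inner Lhx3 promoter.

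The first comparison set progenitors with induced wild-type Nkx2.2 against pMN, which received no doxycycline. All 5 genes fell in iNkx2.2 progenitors, by 2.24 to 5.14 on the log2 scale. No iNkx2.2 library reached the lowest pMN library for any of them, and the share of all genes so separated was not counted. Among all 15653 genes tested, 4.78% were called lower at an edgeR adjusted p under 0.05 and 9.49% were called in either direction. In a fit blocked by replicate, since same-numbered libraries deviated together, 29.6% of genes were called and the 5 genes were still called lower. The 2 LIM-homeodomain partners Lhx3 and Lhx4 fell the furthest, to 3.18% and 2.48% of the pMN mean, while Mnx1 kept 21.2%.

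Mnx1, the homeodomain factor that holds motor neurons apart from interneurons, stood at 17.1, 7.95 and 18.6 CPM in the 3 pMN libraries and at 3.33, 2.95 and 2.98 CPM in the 3 iNkx2.2 libraries. The groups did not overlap, and pMN replicate 2 was the lowest of the controls. The fitted log2 fold change was -2.24 ± 0.30 SE (adjusted p = 0.00292, edgeR), a 4.71-fold lower level. The induced libraries were close to each other, with a mean of 3.09 ± 0.21 CPM (SD, n = 3), against 14.6 ± 5.79 CPM (SD, n = 3) in pMN.

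Lhx3, a LIM-homeodomain factor of medial motor neurons that also acts in V2 interneurons, gave 11.9, 6.01 and 13.1 CPM in pMN and 0.510, 0.134 and 0.340 CPM in iNkx2.2. Every induced library was below every control, and the iNkx2.2 values rested on 25, 3 and 9 counts. The log2 fold change was -4.85 ± 0.61 SE (adjusted p = 0.00205, edgeR). Its close relative Lhx4, which acts with Lhx3 in early motor neurons, gave 17.5, 7.10 and 22.3 CPM in pMN and 0.796, 0.179 and 0.189 CPM in iNkx2.2. The separation was again complete, and iNkx2.2 replicate 1 was the highest of the induced libraries for both genes. For Lhx4 the log2 fold change was -5.14 ± 0.61 SE (adjusted p = 0.00145, edgeR), and its induced counts were 39, 4 and 5. Without iNkx2.2 replicate 1 it was -6.36.

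Isl2, a LIM-homeodomain factor switched on as motor neurons leave the cycle, stood at 6.40, 1.82 and 8.68 CPM in pMN and at 1.23, 0.716 and 0.641 CPM in iNkx2.2. The groups did not overlap, although pMN replicate 2 lay close above iNkx2.2 replicate 1. Its log2 fold change was -2.67 ± 0.53 SE (adjusted p = 0.0155, edgeR). Chat, the enzyme that makes acetylcholine, stood at 5.23, 1.76 and 4.66 CPM in pMN and at 0.919, 0.269 and 0.377 CPM in iNkx2.2, again without overlap. Its log2 fold change was -2.80 ± 0.55 SE (adjusted p = 0.0155, edgeR), and -3.55 without iNkx2.2 replicate 1. The calls of Isl2 and Chat rested on single libraries: without pMN replicate 1 their adjusted p rose to 0.0634 and 0.0674, and without iNkx2.2 replicate 3 to 0.0601 and 0.0579. The Isl2 call was also lost without iNkx2.2 replicate 1 (adjusted p = 0.0513, edgeR).

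**Figure D1:**
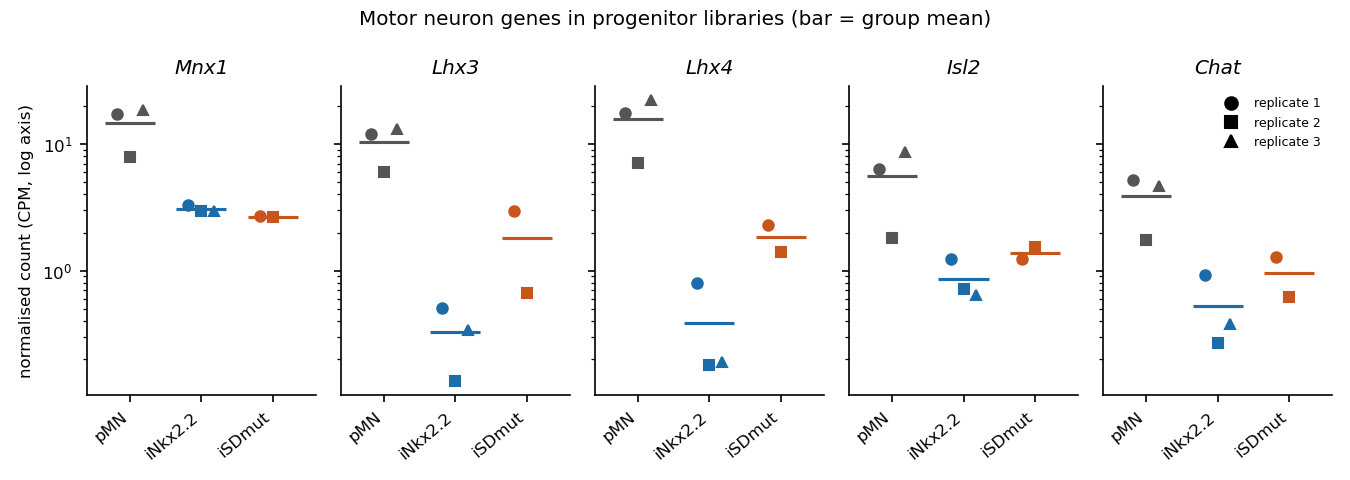
Normalised counts (CPM, log axis) of the 5 genes in the 8 progenitor libraries, with 1 point per library, shaped by replicate number, and a bar at each group mean. All pMN points lie above all iNkx2.2 and iSDmut points in every panel, and pMN replicate 2 is the lowest pMN point throughout.

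Replicate 2 was the lowest pMN library for each of the 5 genes, with 32.3% of the pMN mean for Isl2 and 58.1% for Lhx3. Its summed level of 13 postmitotic neuron genes was also the lowest of the 8 libraries, at 503 CPM, against 945 and 975 CPM in the other pMN libraries. The part of neuron content in the spread of the pMN values was not tested. Compared within replicate number, all 3 iNkx2.2 libraries lay below their pMN counterpart for all 5 genes. The smallest of these log2 differences was -1.25 for Isl2 in replicate 2, and the largest was -6.37 for Lhx4 in replicate 3.

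Titles give the sequencing lanes of the progenitor libraries: lane 2 for replicates 1 and 2 of pMN and iNkx2.2 and for replicate 1 of iSDmut, lane 4 for replicate 3 of pMN and iNkx2.2, and lane 3 for iSDmut replicate 2. Within lane 2 alone, the log2 fold change between iNkx2.2 and pMN was -1.97 for Mnx1, -4.57 for Lhx3, -4.45 for Lhx4, -2.02 for Isl2 and -2.42 for Chat. The first 3 were still called, with edgeR adjusted p of 0.0427, 0.0167 and 0.0246, while Isl2 and Chat reached 0.114 and 0.0971. Lanes 3 and 4 held too few libraries for a value of their own.

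The second comparison set the SD-domain mutant against the same controls. All 5 genes were lower in both iSDmut libraries than in every pMN library, with log2 fold changes between -2.02 and -3.09. How many of all genes were separated in this way was not counted here either. Mnx1 and Lhx4 were called lower by the test, Lhx3, Isl2 and Chat were not, and among all genes tested 1.64% were called lower and 3.54% in either direction. The iNkx2.2 and iSDmut comparisons share the 3 pMN libraries, so their values are given side by side and neither supports the other.

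Mnx1 stood at 2.69 and 2.66 CPM in the 2 iSDmut libraries, below all 3 iNkx2.2 libraries as well as below pMN. Its log2 fold change against pMN was -2.45 ± 0.36 SE (adjusted p = 0.00853, edgeR), beside -2.24 for iNkx2.2. The iSDmut mean was 18.3% of the pMN mean and the iNkx2.2 mean 21.2%, and the 2 iSDmut libraries differed by less than the spread of the iNkx2.2 group.

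Lhx4 gave 2.30 and 1.41 CPM in iSDmut and fell by 3.09 ± 0.63 SE on the log2 scale against pMN (adjusted p = 0.0333, edgeR). The call was lost without any one of pMN replicate 1, pMN replicate 3, iSDmut replicate 1 or iSDmut replicate 2, with adjusted p of 0.0998, 0.0784, 0.0888 and 0.128. Lhx3 gave 2.97 and 0.665 CPM in iSDmut, a log2 fold change of -2.55 ± 0.63 SE against pMN (adjusted p = 0.0583, edgeR). Its 2 iSDmut libraries differed more than 4 times in level, and without iSDmut replicate 1 the log2 fold change was -3.95 (adjusted p = 0.0249, edgeR).

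Isl2 stood at 1.23 and 1.54 CPM in iSDmut, a log2 fold change of -2.02 ± 0.60 SE against pMN (adjusted p = 0.103, edgeR). The higher of these libraries, replicate 2, was just under pMN replicate 2, with a log2 difference of -0.23. Without pMN replicate 2, Isl2 was called, with a log2 fold change of -2.44 (adjusted p = 0.0274, edgeR). Chat stood at 1.29 and 0.623 CPM in iSDmut and had a log2 fold change of -2.05 ± 0.63 SE (adjusted p = 0.110, edgeR). DESeq2 called all 5 genes lower in iSDmut, where it called 8.83% of genes. The fit blocked by replicate called all but Isl2 lower, where it called 16.8% of genes, although the iSDmut numbers were not taken as pairs. Within lane 2, which holds 1 iSDmut library assumed to vary like the other groups, the 5 log2 fold changes ran from -2.41 to -1.43 and none was called.

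The third comparison set the 2 induced lines against each other. The SD domain, the cell line and the measured Nkx2-2 level differ together between them and cannot be told apart here. None of the 5 genes passed the test between iSDmut and iNkx2.2, where 0.281% of all genes did. At an unadjusted p under 0.05, 12.5% of genes differed, and Lhx3 and Lhx4 were among them. DESeq2 called 2 of the 5 genes, Lhx3 and Lhx4, higher in iSDmut (adjusted p = 0.0118 and 0.0232), where it called 3.02% of genes. The fit blocked by replicate called Lhx3 alone of the 5 (adjusted p = 0.0109, edgeR), where it called 3.37% of genes. The iSDmut numbers were not taken as pairs. Where libraries of the 2 lines do not overlap below, this is a description, and the share of all genes so separated was not counted. With 2 against 3 libraries, an exact two-sided permutation test cannot go below p = 0.2.

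Lhx3 was higher in both iSDmut libraries than in all 3 iNkx2.2 libraries, with a log2 difference of 2.30 ± 0.67 SE, a 4.93-fold higher level, and a 95% interval of 0.99 to 3.62 (adjusted p = 0.208, edgeR). The difference rested on iSDmut replicate 1: without it the log2 difference was 0.89 (adjusted p = 0.911, edgeR), and without iSDmut replicate 2 it was 3.03 (adjusted p = 0.0312, edgeR). Within lane 2 it was 3.00 (adjusted p = 0.0996, edgeR). Lhx4 was also higher in both iSDmut libraries, with a log2 difference of 2.05 ± 0.66 SE and an interval of 0.75 to 3.35 (adjusted p = 0.246, edgeR). Without iNkx2.2 replicate 1, the highest of its group, it was 3.27 (adjusted p = 0.205, edgeR). Over 12 alternatives the Lhx4 difference ran from 1.65 to 3.27.

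For Mnx1, the only gene of the 5 that was lower in both iSDmut libraries than in every iNkx2.2 library, the log2 difference was -0.21 ± 0.35 SE with an interval of -0.90 to 0.47 (adjusted p = 0.831, edgeR). The interval leaves room for a level lower or higher by these amounts. Isl2 was higher in both iSDmut libraries, with a log2 difference of 0.65 and an interval of -0.53 to 1.83. Chat overlapped between the lines, with a log2 difference of 0.75 and an interval of -0.52 to 2.01 (adjusted p = 0.684 for Isl2 and 0.661 for Chat, edgeR). Without iNkx2.2 replicate 1 these differences were 1.03 and 1.51, and without iSDmut replicate 1 that of Chat was 0.15, none of them called. These intervals are normal approximations from the fitted errors, which are too narrow with so few libraries, and are not adjusted for the 5 genes.

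**Figure D2:**
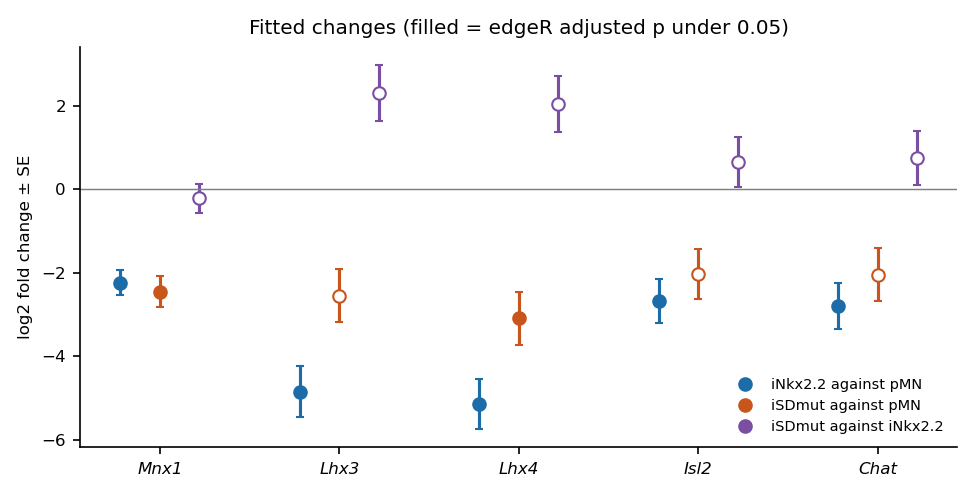
Fitted log2 fold changes (points) with their standard errors (bars) for the 5 genes in the 3 progenitor comparisons, with filled points for an edgeR adjusted p under 0.05. Lhx3 and Lhx4 lie lowest for iNkx2.2 against pMN at -4.85 and -5.14, and no point is filled for iSDmut against iNkx2.2.

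Ratios within a library do not depend on depth or scaling and show how unequal the changes were. Per count of Mnx1, the pMN libraries held 0.893 to 1.20 counts of Lhx4, iNkx2.2 held 0.0606 to 0.239 and iSDmut held 0.531 and 0.854. The 3 groups were separate, in the order pMN, iSDmut, iNkx2.2. For Lhx3 the pMN ratio was nearly constant at 0.695 to 0.756, iNkx2.2 held 0.0455 to 0.153, and the iSDmut libraries lay on either side of pMN at 1.10 and 0.250. For both genes the exact permutation p between iNkx2.2 and pMN was 0.1, two-sided, the smallest that 3 against 3 libraries allow, and 0.4 after Benjamini-Hochberg adjustment over 12 such comparisons.

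The ratios of Isl2 and Chat to Mnx1 overlapped between pMN and iNkx2.2. Isl2 ran from 0.229 to 0.466 in pMN and from 0.215 to 0.368 in iNkx2.2 (exact permutation p = 0.4). Chat ran from 0.221 to 0.305 and from 0.0909 to 0.276 (exact permutation p = 0.3). In iSDmut, the Isl2 ratios of 0.458 and 0.578 were above all of iNkx2.2, and the Chat ratios of 0.479 and 0.234 overlapped with it. With 2 against 3 libraries, none of these tests can go below 0.2.

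**Figure D3:**
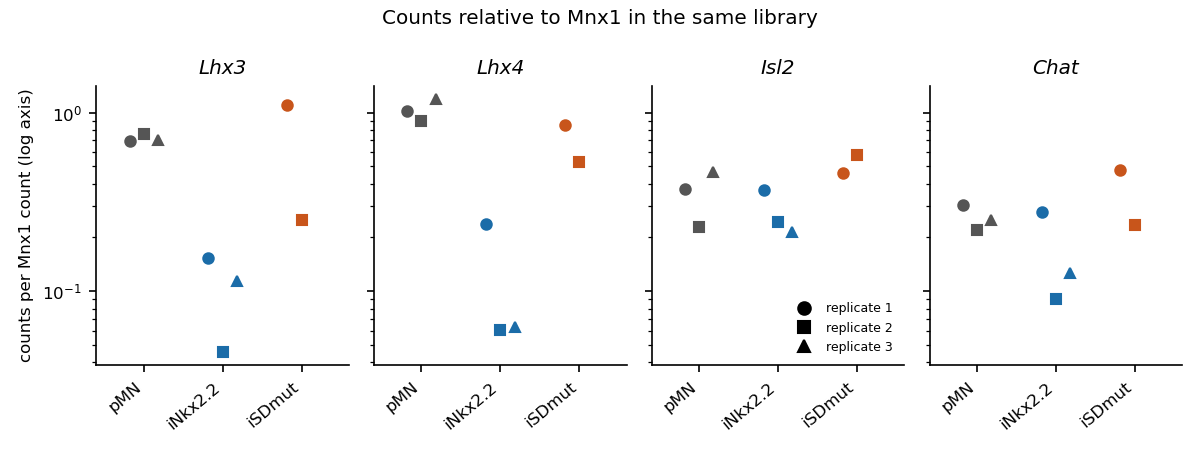
Counts of Lhx3, Lhx4, Isl2 and Chat per count of Mnx1 in each progenitor library (log axis), with 1 point per library shaped by replicate number. The Lhx3 and Lhx4 points of iNkx2.2 sit below all pMN and iSDmut points, while those of Isl2 overlap with pMN.

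Levels can be compared between the genes per length, as the FPKM values that the authors deposited, which are scaled for depth and transcript length. In pMN the order was Mnx1 at 5.51 ± 2.54 FPKM, Lhx3 at 4.89 ± 1.63, Isl2 at 3.08 ± 1.57, Lhx4 at 3.07 ± 1.35 and Chat at 0.944 ± 0.459 (SD, n = 3). The first 4 did not differ from their neighbours beyond these spreads, and the highest Chat value, 1.27 FPKM, was below the lowest value of each of the other genes. In iNkx2.2 Mnx1 led at 1.18 ± 0.056 FPKM (SD, n = 3), followed by Isl2 at 0.489 ± 0.147, without overlap between their libraries. Lhx3 at 0.199 ± 0.122, Lhx4 at 0.131 ± 0.172 and Chat at 0.121 ± 0.064 FPKM lay within their spreads of each other. In iSDmut, Lhx3 at 1.07 ± 0.871 FPKM (SD, n = 2) and Mnx1 at 1.02 ± 0.045 were the highest, Isl2 was at 0.759 ± 0.070, Lhx4 at 0.382 ± 0.174 and Chat at 0.230 ± 0.122.

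Lhx3 and Isl2 are overlapped by the antisense genes Gm27196 and Gm17226, and Chat by the antisense gene Gm2990 and, on its own strand, by Slc18a3, the vesicular acetylcholine transporter, which lies within it. Whether the authors' counting used strand is not given in the sources used here, so reads of these partners cannot be told apart from those of Lhx3, Isl2 and Chat where they overlap. No annotated gene overlaps Mnx1 or Lhx4.

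In the authors' deposited table of the progenitors, Mnx1, Lhx3 and Lhx4 are listed as lower in both induced lines than in pMN. Their log2 fold changes in the authors' deposited table are -2.14, -5.01 and -5.50 for iNkx2.2 and -2.42, -2.88 and -3.02 for iSDmut. The authors' deposited table marks none of the 3 as different between iNkx2.2 and iSDmut, and it does not list Isl2 or Chat.

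All 13 motor neuron specification factors of a further list were tested. In iNkx2.2, 4 of them fell and 1 rose. Those that fell were Neurog2, the proneural factor of motor neuron progenitors (log2 fold change -6.31), Pax6, which sets the progenitor's dorsal-ventral position (-5.54), Olig2 (-5.35) and Onecut1 (-1.52). Neurod4, a later neurogenic factor, rose by 1.59. The list's median was -0.42, against -0.01 over all genes. Isl1, the partner of Lhx3 in motor neurons, stood at 28.6 to 67.1 CPM in pMN and 25.4 to 56.6 CPM in iNkx2.2, a log2 fold change of -0.42 ± 0.34 SE (adjusted p = 0.488, edgeR).

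In iSDmut, 3 of the 13 factors fell against pMN, namely Pax6 (-2.77), Neurog2 (-2.75) and Nkx6-2 (-1.31), and Neurod4 rose by 0.83. The median was -0.27, beside -0.01 over all genes. Olig2 ran from 25.6 to 87.1 CPM in iSDmut, a log2 fold change of -2.18 that was not called (adjusted p = 0.0741, edgeR). Between the induced lines, Neurog2 and Pax6 were called higher in iSDmut, by 3.56 and 2.77 on the log2 scale (adjusted p = 0.0304 for both, edgeR), and the other 11 were not called.

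Of 6 cholinergic genes other than Chat, 5 were tested in the progenitors, where Slc18a3 has no row in the counts used here. None of the 5 was called in any of the 3 comparisons by edgeR. Slc10a4, a vesicle transporter of cholinergic neurons, came closest, with a log2 fold change of -2.25 in iNkx2.2 (adjusted p = 0.0659, edgeR) and -2.09 in iSDmut (adjusted p = 0.18, edgeR). Its pMN range of 1.21 to 8.81 CPM overlapped with 0.582 to 1.61 CPM in iNkx2.2. The choline transporter Slc5a7 was at most 1.04 CPM in all 8 libraries. The medians of the 5 genes were -0.04 for iNkx2.2 and 0.11 for iSDmut against pMN.

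Of 9 genes that mark classes of motor neurons, 1 fell and 2 rose in each induced line against pMN. Pou3f1, a POU-domain factor, rose in both, with log2 fold changes of 2.93 ± 0.42 SE and 2.65 ± 0.44 SE (adjusted p = 0.00372 and 0.0154, edgeR). Mecom, a zinc-finger factor, fell by 1.34 and 0.69 on the log2 scale. Phox2a rose by 2.76 in iNkx2.2 and Aldh1a2, the retinoic acid enzyme, by 2.04 in iSDmut. The list's medians were 0.27 and -0.21.

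Of the 13 postmitotic neuron genes, none fell in either induced line. Map2 (1.19) and the neuronal tubulin Tubb3 (1.01) rose in iNkx2.2, and Gap43 (1.79) rose in iSDmut, with medians of 0.05 and 0.71. Their summed level was 503 to 975 CPM in pMN, 993 to 1447 CPM in iNkx2.2 and 1168 to 1646 CPM in iSDmut, and none was at 0. Every induced library, in which the 5 motor neuron genes were lower, had a higher sum of these general neuronal transcripts than any pMN library. The closest sums were 993 CPM in iNkx2.2 and 975 CPM in pMN, and single genes of the list lay on both sides of 0 in iNkx2.2. The part of neuron content in the changes of the 5 motor neuron genes was not tested.

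**Figure D4:**
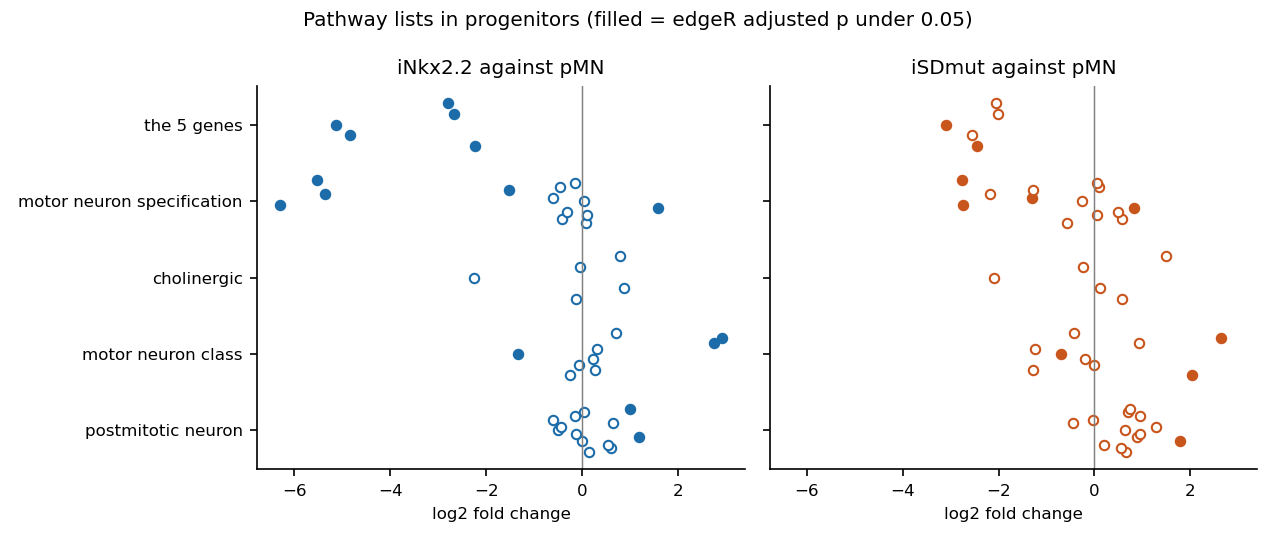
Log2 fold changes of the 5 genes and of every tested gene of 4 pathway lists against pMN, with 1 point per gene, filled for an edgeR adjusted p under 0.05. All 5 genes lie left of 0 in both panels, while the 13 postmitotic neuron genes lie on both sides in iNkx2.2.

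Markers of other cell types that such cultures could hold moved in the same libraries, and their part in the changes of the 5 genes was not tested. Of 6 autonomic neuron markers, 2 rose in iNkx2.2 (Chrna3 and Tubb3) and 1 in iSDmut (Chrna3), with summed levels of 302 to 577 CPM in pMN, 744 to 992 CPM in iNkx2.2 and 789 and 811 CPM in iSDmut and no marker at 0. Of these markers, 4 (Tubb3, Elavl4, Prph and Stmn2) also belong to the postmitotic neuron list, so the Tubb3 rise is the one given above and the sums share these genes. Of the V3 and p3 genes, Uncx and Sim1 rose in iNkx2.2 and Nkx2-9 fell by 4.91 on the log2 scale, so that the summed level of the 3 genes went from 70.2 to 97.8 CPM in pMN to 5.64 to 11.1 CPM. In iSDmut the sum was 12.3 and 14.4 CPM, where Uncx also rose and Nkx2-9 fell by 2.90. Uncx was at most 0.0847 CPM in pMN, 3.36 to 4.98 CPM in iNkx2.2 and 1.29 and 2.16 CPM in iSDmut. Lhx3 and Lhx4 are also V2 interneuron genes: of 6 V2 markers, 4 were tested, and in iNkx2.2 Foxn4 fell by 1.18 and Gata2 rose by 1.31. The V2 sums were 7.46 to 10.8 CPM in pMN, 7.96 to 11.3 CPM in iNkx2.2 and 4.74 and 6.66 CPM in iSDmut. Of 5 floor plate genes, Spon1 alone rose in iNkx2.2, and none of 5 pluripotency or 5 tested mesoderm and endoderm genes was called there. In iSDmut, 1 pluripotency gene (Esrrb) rose and no floor plate, mesoderm or endoderm gene was called. The other pluripotency genes had log2 fold changes from -3.15 to -0.55, none called, and the list's median was -1.56. The pluripotency sums of iSDmut, 10.3 and 11.6 CPM, lay within the pMN range. The tested mesoderm and endoderm genes had a median of -1.83, with Tbx6 alone higher (0.39). Sums of that list were 12.6 and 20.9 CPM in iSDmut, below 27.8 to 60.8 CPM in pMN and 23.8 to 56.8 CPM in iNkx2.2. Of 4 tested pan-endocrine genes, Insm1 and Neurog3 rose and Neurod1 fell in iNkx2.2, and Insm1 rose in iSDmut.

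The genes whose log2 CPM followed each of the 5 most closely over the 8 progenitor libraries are given as a description, since the libraries fall into 3 groups that differ in many genes. Lhx3 was followed most closely by Gprc5b (Pearson's r = 0.995), Olig1 (0.992), the glial and motor neuron progenitor factor next to Olig2, and Angpt1 (0.990). For Lhx4 the closest were Olig1 (0.993), Nkx2-9 (0.990) and Gprc5b (0.987), and Lhx3 ranked 4 of 12340 genes (0.976). For Mnx1 they were Gm9825 (0.986), Mdc1 (0.978) and Impa2 (0.975), with Lhx3 at rank 343 (0.856). For Isl2 they were Arhgap36 (0.980), Mcm9 (0.964) and Add3 (0.957), and for Chat Grb10 (0.986), Ank2 (0.981) and Ddc (0.975).

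In the pancreas, Mnx1 was the only one of the 5 genes above trace level in every library. At E15.5 it stood at 7.90, 5.21 and 4.36 CPM in controls and at 4.78, 4.66, 5.91 and 4.96 CPM in SDmut. The groups overlapped, and the log2 fold change was -0.20 ± 0.24 SE (adjusted p = 1.00, edgeR). Of the 5 genes, 2 passed the low-count filter here and 0 were called, where 1 of 18723 genes (0.00534%) was called and 2.54% differed at an unadjusted p under 0.05. Neither Mnx1 nor Isl2 differed at that unadjusted level, and DESeq2 called neither. The Mnx1 direction rested on control 1, without which the log2 fold change was 0.09. That library also held the highest sum of 8 beta cell markers, 1096 CPM against 485 and 584 CPM in the other controls and 209 to 341 CPM in SDmut, and the part of beta cell content was not tested.

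Isl2 was the second gene tested in the embryonic pancreas. It stood at 0.363, 1.75 and 1.17 CPM in controls and at 1.52, 1.63, 0.662 and 1.5 CPM in SDmut. The groups overlapped, with 1 low library in each, and the log2 fold change was 0.28 ± 0.55 SE (adjusted p = 1.00, edgeR). Without control 1 it was -0.13, and without control 2 it was 0.80. Control 2, the highest control for Isl2, held 382 CPM of 6 autonomic neuron markers, against 50.8 to 135.8 CPM in the other libraries. The sums of 4 Schwann cell markers ran from 18.8 to 46.9 CPM and were 22.5 and 19.4 CPM in the low libraries, control 1 and SDmut 3, but SDmut 1, with Isl2 at 1.52 CPM, had the lowest sum. The part of nerve tissue was not tested. Control 3 and SDmut 2 held 3666 and 3470 CPM of 5 skeletal muscle genes, against at most 17.2 CPM elsewhere, and without them neither gene was called.

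Lhx3, Lhx4 and Chat were too low to test at E15.5. Lhx3 was at most 0.148 CPM in controls and 0.448 CPM (17 counts) in SDmut 4. Lhx4 was at most 0.130 CPM and Chat at most 0.237 CPM, against a level of 0.071 to 0.079 CPM for 3 counts in these libraries. A difference between the groups was not detectable at this depth.

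In adult islets, Mnx1 was 14.2 and 14.8 CPM in the 8-week controls and 19.7, 25.4 and 24.3 CPM in betaSDmut. All 3 mutant libraries were above both controls, and the share of all genes so separated was not counted. Mnx1 rose by 0.67 ± 0.13 SE on the log2 scale, 1.59-fold (adjusted p = 0.0366, edgeR). The 95% interval of 0.42 to 0.93 is a normal approximation, too narrow with so few libraries. Mnx1 was the only one of the 5 genes tested there, and 4.07% of 15413 genes were called higher and 7.94% in either direction. The call was lost without control 1 (adjusted p = 0.245, edgeR), control 2 (0.242), betaSDmut 2 (0.118) or betaSDmut 3 (0.0627), while the log2 fold change stayed between 0.61 and 0.78. In the authors' deposited tables the Mnx1 log2 fold change is 0.66 and not called in the table of betaSDmut alone, and 0.67 and called in the table of both genotypes.

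Nkx6-1, a beta cell factor that also specifies motor neuron progenitors, fell by 0.91 on the log2 scale in betaSDmut islets, and Isl1 rose by 0.98 (adjusted p = 0.0174 and 0.00504, edgeR). They were the 2 genes called among 7 tested motor neuron specification factors. The summed beta cell markers were 233285 and 238833 CPM in 8-week controls and 196973 to 215219 CPM in betaSDmut, with 2 of 8 markers lower and none at 0. The alpha cell markers ranged from 32232 to 40888 CPM and from 23123 to 33058 CPM, and the acinar markers from 2593 to 4345 CPM and from 442 to 3447 CPM. Of 12 tested postmitotic neuron genes, Mapt, Nefm and Snap25 rose, none fell and 9 were not called, with a median log2 fold change of 0.15. Of 6 autonomic markers Th rose, none fell and 5 were not called, with a median of -0.23. The part of these cell types in the Mnx1 difference was not tested.

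At 4 weeks, Mnx1 stood at 15.6 and 11.7 CPM in controls and at 14.7 and 10.4 CPM in the libraries labelled betaKO. The groups overlapped, with a log2 fold change of -0.12 ± 0.23 SE, an interval of -0.58 to 0.34 and an edgeR adjusted p of 0.864, where 1.56% of 14942 genes were called and 15.2% differed at an unadjusted p under 0.05. Neither edgeR at that unadjusted level nor DESeq2 picked out Mnx1. Without control 1 or without betaKO 2 the sign turned, to 0.11 and 0.10. The authors' deposited table gives -0.14, not called. The summed alpha cell markers were 30301 and 25958 CPM in these controls and 64210 and 52370 CPM in betaKO, where Gcg and Ttr rose, and the beta cell markers 207648 and 211760 CPM against 176872 and 164810 CPM, where Ucn3 fell. Acinar markers stood at 3606 and 2031 CPM against 13992 and 3898 CPM, no marker of the 3 lists was at 0, and their part in the Mnx1 values was not tested. Whether Mnx1 differs between the 2 genotypes' effects was not tested, since age and genotype differ together.

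**Figure D5:**
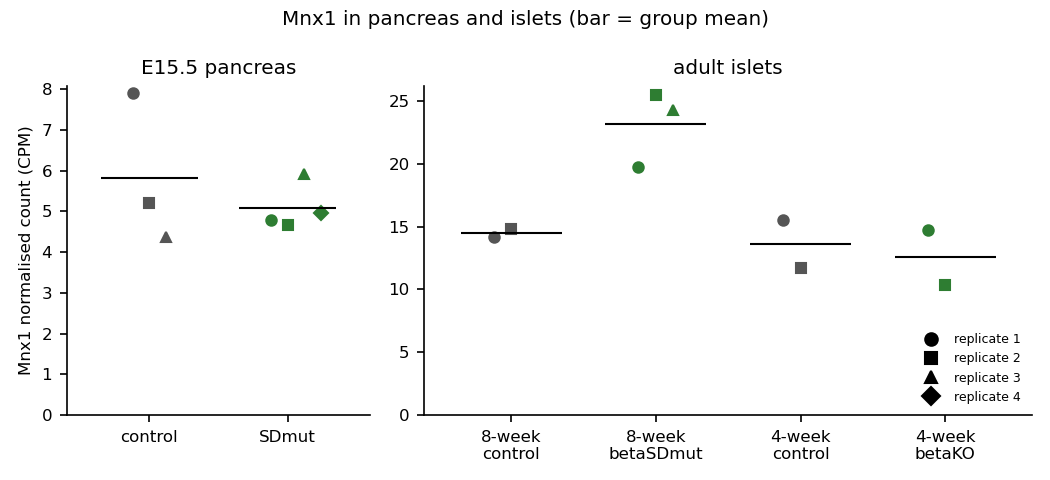
Mnx1 normalised counts (CPM) in E15.5 pancreas (left) and adult islets (right), on separate axes that start at 0, with 1 point per library and a bar at each group mean. The 3 betaSDmut libraries lie at 19.7 to 25.4 CPM, above the 8-week controls at 14.2 and 14.8 CPM, and the other groups overlap.

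Per length, the deposited Mnx1 values were 12.6 ± 0.588 FPKM (SD, n = 2) in 8-week controls, 20.2 ± 3.40 FPKM (SD, n = 3) in betaSDmut, 12 ± 3.97 FPKM in 4-week controls and 9.89 ± 2.33 FPKM in betaKO (SD, n = 2 each). They stand beside 5.51 FPKM in pMN, in a table normalized separately, and no test was made between the tables. Over the 9 islet libraries, the log2 CPM of Mnx1 was followed most closely by Kcnj6 (Pearson's r = 0.979), a potassium channel, Tpd52l1 (0.978) and Camk2b (0.977), a calcium-dependent kinase, of 13076 genes ranked.

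The 4 other genes were at or near background in islets. Lhx4 had 0 counts in all 9 libraries, which allows at most 0.089 to 0.234 CPM by the limit of 3 counts, for counting error only. Isl2 had 1 count in 2 of the libraries and Lhx3 at most 2 counts in any. Chat had 1 to 14 counts and at most 0.781 CPM, in the library labelled betaKO 2. Lhx4 is thus a gene seen in the progenitors and not detected in islets at this depth.

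Binding of Nkx2.2 was mapped by chromatin immunoprecipitation in MIN6, a mouse beta cell line, with 2 replicates and 1 input, so the sites describe beta-like cells and not progenitors. The authors deposited 10749 binding events and a final set of 6473 sites. Within 50 kb of an annotated start, Chat had 2 events and Lhx4 had 4, of which 2 each were final sites, and Mnx1, Lhx3 and Isl2 had none. Of 21951 protein-coding genes, 35% had an event and 28.7% a final site within that distance, so 2 of 5 genes is close to the background.

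The 3 windows of 101 bases below are shown because they are final sites that hold 1 of the motifs, again in capitals. They are written 5′ to 3′ on the plus strand of GRCm38, so that CACTT and CACTCA are the motifs read on the minus strand, and none overlaps an annotated exon. The Chat windows lie in the gene body at chr14:32439800-32439900 and chr14:32429118-32429218, centred 21.1 and 31.7 kb downstream of the nearest Chat start. The Lhx4 window lies past the end of the gene at chr1:155693657-155693757, centred 48.3 kb downstream of its nearest start.
Chat site nearer to the start: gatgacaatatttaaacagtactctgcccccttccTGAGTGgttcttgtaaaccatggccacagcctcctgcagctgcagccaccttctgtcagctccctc
Chat site farther from the start: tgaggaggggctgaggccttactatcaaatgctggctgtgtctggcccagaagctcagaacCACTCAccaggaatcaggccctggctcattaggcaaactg
Lhx4 site: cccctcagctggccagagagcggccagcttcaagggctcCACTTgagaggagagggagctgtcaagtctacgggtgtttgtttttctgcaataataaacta
The Chat sites had 73 and 53 reads (replicates 1 and 2) and 71 and 41 reads in windows of 500 bases, ranks 5562 and 6600 of 10749 events. The Lhx4 site had 50 and 40 reads, rank 7958. All 3 lay below the middle of the ranking by reads. The other Lhx4 final site, 47.8 kb upstream, had 90 and 60 reads, held neither motif and lay so close to another event that their windows share reads. Of all final sites, 19.3% held TGAGTG, against 7.0% of windows of the same length 2000 bases away, while AAGTG was at 22.7% and 21.3%.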

How the data were processed

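RNA was sequenced in 24 mouse libraries, and Nkx2.2 binding in MIN6 cells. The authors deposited raw gene counts, FPKM values, tables of log2 fold changes with p-values, and binding events with read counts, log2 CPM and scores. STAR, Cufflinks, DESeq2, edgeR (3.20.9), limma (3.34.9), bedtools (2.17.0) and build mm10 are named in the submitters' processing notes, and the counting rule and its use of strand are not given in the sources used here. The FPKM values were used only to compare levels between genes.

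Counts were tested as deposited with edgeR (4.0.16; R 4.3.3): TMM scaling, the filterByExpr filter, robust glmQLFit and glmQLFTest, with Benjamini-Hochberg adjustment over all genes tested and a threshold of 0.05. The 8 progenitor libraries shared 1 model of 3 groups, and the embryonic and each islet comparison had models of their own. Standard errors were derived from the log2 fold change and the F statistic, and 95% intervals use the normal quantile 1.96. With the few degrees of freedom of these tests, such intervals are too narrow. DESeq2 (1.42.0), other scalings and filters, blocks, lane 2 alone and left-out libraries were alternatives. Replicate numbers in the titles pair pMN with iNkx2.2: the deviations of same-numbered libraries correlated at 0.535, 0.513 and 0.568. The 2 iSDmut numbers were not taken as pairs (0.343 and 0.0503 with pMN). Scripts were tested on simulated data.

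The 5 genes and the pathway lists were chosen with earlier results of these data known. Named list genes are those with an adjusted p under 0.05 in the comparison described, at most 5 per list by size of change; Olig2 in iSDmut, Isl1, Slc10a4 and Slc5a7 were named besides, after their values were seen. Some genes of the lists are not reported here, and the lists' counts, medians and sums leave them out. Genes most like a member are the 3 with the highest Pearson correlation of log2 CPM (prior count 2) among genes with a mean log2 CPM of at least 1. Gene loci come from GENCODE vM21 (GRCm38) and promoters from RefSeq (GRCm38.p6), cut with Python (3.11.15) and pyfaidx (0.9.0.4). Motifs were searched on both strands.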

Additional observations from a re-analysis of the deposited data

Results flagged for a closer look

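Isl2 in SDmut pancreas replicate 3 at E15.5 stood at 0.662 CPM, far below the other 3 SDmut libraries, which were at 1.5 to 1.63 CPM. The gap was 0.866 of the group's range, above Dixon's 95% critical value for 4 samples. Each of the 5 genes was checked in this group, the only one of a size that the check takes, and 1 passed. Chance alone gives about 1 in 20 for a single check, and the chance that at least 1 of 5 checks passes is larger.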

How the results depend on the processing

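Over 240 values of single genes under alternatives, 206 kept their direction and their side of the threshold, 19 lost a call, 11 gained one and 4 changed sign. Those 4 were Mnx1 (0.086) and Isl2 (-0.13) in E15.5 pancreas without control 1, and Mnx1 in 4-week islets without control 1 (0.11) and without betaKO 2 (0.10), none of them called. With 1 library left out, these log2 fold changes ran from -0.37 to 0.086, from -0.13 to 0.80 and from -0.40 to 0.11. For iNkx2.2 against pMN, the number of genes called of the 5 was 2 with at least 10 counts in every library, where only Mnx1 and Isl2 were tested, 3 within lane 2, and 3 to 5 when 1 library was left out. For iSDmut against pMN it was 1 without a count filter, 1 with at least 10 counts in every library, 5 by DESeq2, 0 within lane 2, and 1 to 3 with 1 library left out. For iSDmut against iNkx2.2 it was 2 by DESeq2 and 0 to 1 with 1 library left out. For 8-week islets it was 0 to 1 with 1 library left out. With the replicate block, 5 genes were called for iNkx2.2 against pMN, 4 (all but Isl2) for iSDmut against pMN, 1 (Lhx3, log2 difference 2.46, edgeR adjusted p = 0.0109) between the induced lines and 0 (Mnx1, adjusted p = 0.0647) in 8-week islets, where the numbers do not pair the samples. Where leaving out a library left 1 in a group, that sample is assumed to vary like the others. Beyond the alternative's own construction, the causes were not tested.

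The counts over all genes moved as well. For iNkx2.2 against pMN they were 1486 (748 lower, 738 higher), 1329 (412 and 917) with total library sizes, 4629 with the block, 2271 by DESeq2 and 412 to 1299 with 1 library left out. For iSDmut against pMN they were 554 (257 and 297), 506 (164 and 342), 2626, 1382 and 171 to 349, with 295 when only the 2 groups were fitted and 151 in lane 2. Between the induced lines they were 44 (19 and 25), 30 (15 and 15), 528, 473 and 2 to 467, with 145 without a filter, 13 and 243 (177 and 66) in lane 2. In 8-week islets they were 1224 (596 and 628), 1361 (434 and 927), 757, 2041 and 37 to 2765. In 4-week islets they were 233, 127, 263, 770 and 4 to 478, and 372 without a filter. In E15.5 pancreas they were 1, 2, 0 (shared title numbers as the block), 25 and 0 to 2. The few counts of Lhx3, Lhx4 and Chat in iNkx2.2 limit the precision of their fold changes.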
